A study of Mus musculus with 16 samples.

Results

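Diabetic kidneys were set against control kidneys at 6 weeks of age in 8 of the 16 single-cell libraries of this series, 4 from BTBR ob/ob mice (DN) and 4 from BTBR +/+ mice (control). The libraries were chosen by genotype and age in their titles, and no measured value was used. BTBR ob/ob mice lack functional leptin and become obese and diabetic. By the study's methods, mice of both genotypes also carried a podocyte reporter, the ROSA26 mTmG allele with a Cre transgene driven by a podocyte-specific promoter, so control kidneys were not free of transgenes. Each genotype had 2 female and 2 male libraries with replicate numbers 1 and 2, and same-numbered libraries of a sex were compared as pairs. Each library came from both kidneys of 1 mouse without the papilla, after a Percoll gradient that partly depleted the proximal tubule and a digestion with cold-active protease. After filtering, 41592 of the 83206 kept cells of the series came from these 8 libraries, and 29375 of them fell in a class named from marker genes.

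The distal nephron begins with the ascending limb of the loop of Henle, which takes up salt without water and secretes uromodulin into the urine. It continues through the distal convoluted tubule, which takes up sodium chloride with the thiazide-sensitive cotransporter, and the connecting tubule, a main site of regulated calcium uptake. In the collecting duct, principal cells take up sodium and water under aldosterone and vasopressin, and the type A and type B intercalated cells secrete acid and bicarbonate. Sex hormones set the level of many transcripts of the mouse proximal tubule.

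The libraries held 3853 to 10879 cell barcodes and 10510855 to 125551519 unique molecular identifiers (UMIs), and pairs of 6-week libraries shared at most 0.597% of their barcodes. Replicate 1 of the females was shallow in both genotypes, and control male replicate 2 stood apart with 8907 kept cells at a median of 619 UMIs, of which 62.5% fell in unnamed clusters. Cells were grouped into 16 classes, written here as podocyte-like, glomerular endothelial-like (gEC-like), mesangial-like and so on because the names rest on markers alone. The distal classes were ascending limb-like (aLOH-like), distal convoluted tubule-like (DCT-like), connecting tubule-like (CNT-like), principal cell-like (PC-like) and intercalated type A-like and type B-like (IC-A-like and IC-B-like), beside proximal tubule-like (PT-like) and descending limb-like (dLOH-like) cells. In each class at least 5 markers exceeded 2 times the mean of the other classes, which held for 7 of 7 markers in DCT-like and 8 of 8 in aLOH-like, PC-like, IC-A-like and IC-B-like cells. The classes were named from these same markers, so the counts are no separate check of the names. Podocyte-like cells (216 control and 118 DN cells in the fit) and mitotic cells (85 and 79) had 3 pairs in place of 4. In podocyte-like cells DN female replicate 1 was left out with 7 cells.

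Raw UMIs were summed per library and class, and a gene was called when its adjusted p was under 0.05 over all genes tested in that class (edgeR quasi-likelihood test with pairs as a block, Benjamini-Hochberg adjustment). Over the 16 classes 139142 tests gave 2044 calls, or 1.47%. Among distal classes, DCT-like cells had 183 genes higher (1.82% of 10066 tested) and 82 lower (0.815%), or 2.63% called. PC-like cells had 140 higher (1.21% of 11529) and 86 lower (0.746%), or 1.96%. IC-A-like cells had 136 higher (1.26% of 10811) and 92 lower (0.851%), or 2.11%. In aLOH-like cells 96 were higher (1.04% of 9220) and 85 lower (0.922%), or 1.96%. CNT-like cells had 28 higher (0.262% of 10674) and 22 lower (0.206%), or 0.468%, and IC-B-like cells 30 (0.275% of 10915) and 17 (0.156%), or 0.431%. In dLOH-like cells 6 were higher (0.0634% of 9460) and 2 lower (0.0211%). In this paired fit mesangial-like cells had the highest share of all classes at 3.87%, with 263 higher (2.8% of 9391) and 100 lower (1.06%). PT-like cells had 119 higher (0.984% of 12092) and 163 lower (1.35%), or 2.33%. Of 6711 genes in podocyte-like cells 134 were higher (2.0%) and 43 lower (0.641%), and of 9326 in gEC-like cells 57 (0.611%) and 66 (0.708%). Smooth muscle and renin-like cells had 50 higher (0.622% of 8038) and 19 lower (0.236%). Few were called in arterial endothelial-like cells, with 6 higher (0.0674% of 8896) and 7 lower (0.0787%), in peritubular and venous endothelial-like cells, with 4 (0.0987% of 4052) and 2 (0.0494%), and in immune cells, with 4 (0.067% of 5971) and 2 (0.0335%). No gene was called in mitotic cells, with 6 libraries in 3 pairs, where 52 of 1990 genes had an unadjusted p under 0.05 and the alternatives called 0 to 3. Cells of a class came from more than 1 cluster in some classes, in shares that differed between groups. One PT-like cluster held 39.1% of the PT-like cells in control and 26.4% in DN, another 23.8% and 30.1%, and the smaller mesangial-like cluster held 7.68% and 15.7%. Their part in the calls of these classes was not tested. The call counts rest on the pairing of libraries: without pairs, with sex as a term, 102 of the calls were kept. Of these 102, 44 were in PT-like, 23 in mesangial-like and 18 in podocyte-like cells, so the order of classes changed. With sex and barcode batch 418 were kept, but that fit still held the female pairs. Female replicates 1 and 2 were in different barcode batches, so only the male pairing was dropped. They also rest on the male libraries, since leaving out control male 1, control male 2, DN male 1 or DN male 2 left 1180, 1305, 1171 and 1300 calls. With pairs as a block, leaving out either library of a pair removes that pair's contrast, so the 2 libraries of a pair give near repeats. The p-values measure how far the differences between DN and control vary from pair to pair, over the pairs of both ages, with 1 mouse per library.

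**Figure D1:**
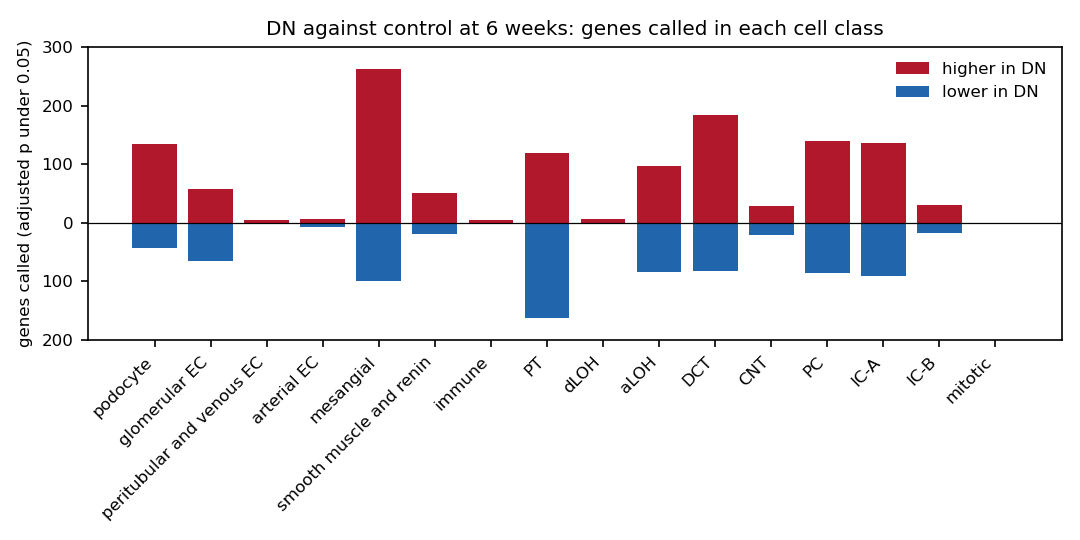
Number of genes called in each of the 16 cell classes at 6 weeks (vertical axis, genes at adjusted p under 0.05), with genes higher in DN above the line in red and genes lower in DN below it in blue. Mesangial-like cells have the tallest bar above the line with 263 genes, and of the distal classes DCT-like cells have the tallest with 183, while dLOH-like, immune and the 2 smaller endothelial classes have at most 7 in either direction.

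Most called genes were called in a single class. Of 1537 genes called at least once, 1204 were called in 1 class only and 80 were called in both directions in different classes. A gene was counted as shared when it was called in the same direction in at least 3 classes and in the other direction in none. This held for 61 genes, 38 higher (0.317%) and 23 lower (0.192%) in DN, of 11990 tested in at least 3 classes (0.509%). A stricter rule of 5 classes left 21. Fewer were shared where only classes with at least 10% of the gene's level in its highest class were counted: 24 of the 38 higher genes and 7 of the 23 lower genes remained shared. Kap, Cyp4b1, Acsm2, Ces1f, Lrp2, Cdkn1a and Hsd11b2, described below, had no call in such a class. The highest level, over both groups, was in PT-like cells for 9 of the 23 lower genes and for 2 of the 38 higher genes. The number shared fell to 37 without control male 1 or control male 2, to 39 without DN male 1 and to 38 without DN male 2. It was 1 without pairs (sex as a term) and 6 with sex and barcode batch, a fit that still held the female pairs.

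Among genes higher in DN, Myof, the membrane-repair protein myoferlin, was called in 7 classes, which were mesangial-like, smooth muscle and renin-like, aLOH-like, DCT-like, CNT-like, PC-like and IC-A-like. Its fold change was positive in all 12 classes where it was tested. In CNT-like cells, where Myof was called with a log2 fold change of 1.06 ± 0.15 (SE, adjusted p = 0.000822), its level was 9.12, 40.8, 18.8 and 26.5 CPM in control and 8.98, 62.6, 48.3 and 70.6 CPM in DN. Levels are given as CPM, a gene's UMIs scaled to 1 common total per library and class, in the order female 1, female 2, male 1 and male 2. It was higher in 3 of 4 pairs and near equal in the female 1 pair, and the groups overlapped. Tspan33, a tetraspanin, was called in 6 classes (PT-like, dLOH-like, aLOH-like, DCT-like, CNT-like and PC-like). Tspan33 in PC-like cells was at 19.6, 30.6, 27.0 and 24.9 CPM in control and 43.1, 48.0, 46.7 and 74.3 CPM in DN, so that every DN library was above every control library (1.00 ± 0.13, adjusted p = 0.000562). Tspan33 lies on chromosome 6 at 29694222 to 29718559 in mm10, the 1 shared gene within 20 Mb of Lep, so a passenger difference around the mutated gene and a change with diabetes cannot be told apart for it.

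Scg5, which encodes the 7B2 chaperone of prohormone convertase 2, was called in aLOH-like, CNT-like, PC-like, IC-A-like and IC-B-like cells. Scg5 in PC-like cells was at 514, 958, 159 and 146 CPM in control and 1317, 1262, 461 and 625 CPM in DN (1.34 ± 0.21, adjusted p = 0.00287). All 4 pairs rose, and the groups overlapped, with females above males in both genotypes. In CNT-like cells it was at 369, 823, 179 and 138 CPM in control and 943, 1169.7, 376 and 462 CPM in DN (1.14 ± 0.15, adjusted p = 0.000615), with the same order of the sexes. In IC-A-like cells the 4 pairs also rose, from 259, 121, 176 and 97.7 to 375, 144, 406 and 221 CPM (0.83 ± 0.12, adjusted p = 2.98e-05). None of these calls was lost when any 1 library was left out.

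The sulfotransferase genes Sult1a1 and Sult1d1 were called in 5 classes each, and Sult1a1 in DCT-like cells was at 32.9, 26.8, 36.3 and 24.2 CPM in control and 42.6, 80.5, 55.9 and 56.0 CPM in DN with no overlap (1.17 ± 0.14, adjusted p = 1.90e-06). Sult1d1 in aLOH-like cells rose in all 4 pairs, from 627, 390.0, 132 and 175 to 717, 753, 346 and 389 CPM (0.94 ± 0.16, adjusted p = 0.00231), and the groups overlapped. S100a6, a calcium-binding protein, was called in podocyte-like, mesangial-like, smooth muscle and renin-like, dLOH-like and aLOH-like cells. S100a6 in mesangial-like cells was at 206, 225, 229 and 329 CPM in control and 352, 1405, 959 and 498 CPM in DN, every DN library above every control (1.59 ± 0.24, adjusted p = 0.000579). In aLOH-like cells its low level also rose without overlap, from 5.19, 2.42, 3.06 and 1.24 to 26.2, 14.4, 7.27 and 9.20 CPM (2.09 ± 0.35, adjusted p = 0.00148). The call was lost without DN female 2, at 1.80 (adjusted p = 0.067).

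Neat1, the RNA scaffold of paraspeckles, the linker histone gene Hist1h1c and Sat1, which acetylates polyamines, were each called in 5 classes. Neat1 in IC-A-like cells was at 145, 316, 139.8 and 269 CPM in control and 192, 464, 192 and 421 CPM in DN (0.54 ± 0.10, adjusted p = 0.00199), higher in all 4 pairs by a similar ratio and overlapping between groups. Hist1h1c in IC-B-like cells rose in all 4 pairs, from 90.5, 62.0, 41.5 and 39.9 to 138, 103, 88.6 and 49.1 CPM (0.70 ± 0.11, adjusted p = 0.000928). Tnfrsf12a, the receptor for the cytokine TWEAK, was called in arterial endothelial-like, aLOH-like, DCT-like, IC-A-like and IC-B-like cells. In aLOH-like cells it was at 28.6, 7.998, 6.32 and 4.96 CPM in control and 31.8, 24.0, 12.7 and 17.5 CPM in DN (1.19 ± 0.22, adjusted p = 0.00425), with control female 1 at the level of the DN libraries. That call was lost without control female 2, at 0.93 (adjusted p = 0.159), or DN female 2, at 0.93 (adjusted p = 0.161). Cdkn1a, the p21 inhibitor of cell division, was called in aLOH-like, DCT-like, PC-like and IC-B-like cells, each at under 10% of its level in arterial endothelial-like cells. In DCT-like cells it was at 59.7, 16.02, 15.4 and 2.30 CPM in control and 44.7, 38.5, 25.5 and 26.0 CPM in DN (1.24 ± 0.24, adjusted p = 0.00196). It was higher in 3 of 4 pairs, and the call was lost without control female 2, at 1.20 (adjusted p = 0.0797), or DN female 2, at 1.21 (adjusted p = 0.0792). Fam129a was called in mesangial-like, smooth muscle and renin-like, CNT-like and PC-like cells. In PC-like cells it was at 61.1, 372, 68.6 and 220.4 CPM in control and 64.0, 417, 174 and 593 CPM in DN (0.86 ± 0.18, adjusted p = 0.0176), a rise seen in males and slight in females. It lost its call without control male 1, at 0.67 (adjusted p = 0.164), control male 2, at 0.62 (adjusted p = 0.133), DN male 1, at 0.67 (adjusted p = 0.159), or DN male 2, at 0.62 (adjusted p = 0.126).

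**Figure D2:**
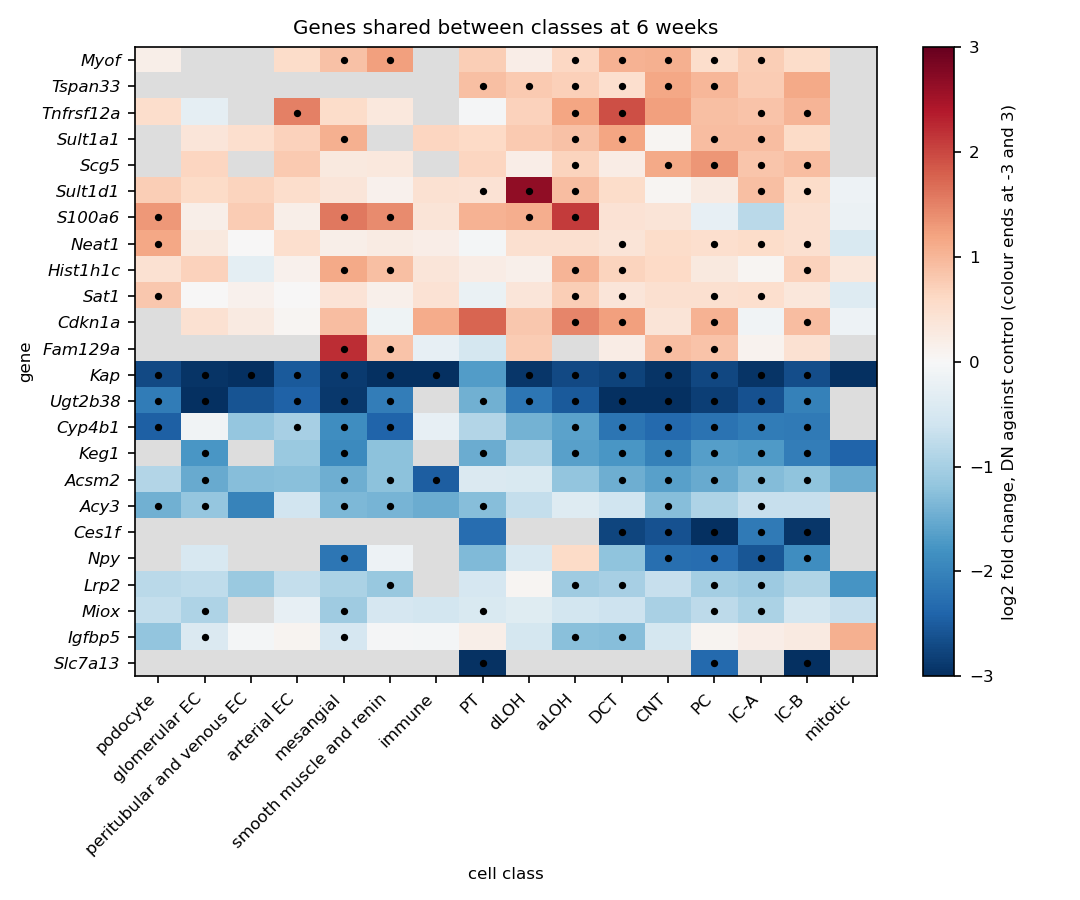
Log2 fold change (DN against control, colour scale from -3 in blue to 3 in red, grey where not tested) of the 24 named shared genes (rows) in the 16 classes (columns), with a dot where the gene was called. Kap carries a dot in 14 classes and Ugt2b38 in 13, while genes higher in DN carry 4 to 7 dots that lie mostly in the distal classes at the right.

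The shared lower genes were led by transcripts of PT-like cells. An unnamed cluster of 8347 cells of the series also had Kap, Ugt2b38, Cyp4b1, Acy3 and Acsm2 among its leading genes. In that cluster 1 library supplied 51.84% of the cells. Control male 2 at 6 weeks had 5564 kept cells in unnamed clusters, the most of the 16 libraries, and the next library had 2568. The part of such cells' transcripts in the falls was not tested. Kap, the kidney androgen-regulated protein of the male proximal tubule, was called lower in 14 of 16 classes and was not called in PT-like cells. Kap in PT-like cells was at 169, 1589, 66796 and 36023 CPM in control and 382, 445, 4812 and 10963 CPM in DN (-1.67 ± 0.57, adjusted p = 0.178). Both DN males were below both control males, whereas DN female 1 was above control female 1, and all males were above all females. In DCT-like cells Kap was at 4.12, 30.0, 732 and 833 CPM in control and 2.13, 9.18, 34.5 and 187 CPM in DN (-2.77 ± 0.29, adjusted p = 2.35e-07), lower in all 4 pairs and again highest in males. Without control male 1 this value was -1.999 (adjusted p = 4.55e-06) and without control male 2 it was -3.42 (adjusted p = 5.32e-07), while it was -2.02 (adjusted p = 5.01e-06) without DN male 1 and -3.42 (adjusted p = 7.55e-07) without DN male 2. Outside PT-like and mitotic cells, the mean CPM of Kap was 0.989% to 4.85% of that in PT-like cells of control and 1.09% to 4.36% of that in DN.

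Ugt2b38, which conjugates steroids and drugs with glucuronic acid, was called lower in 13 of 14 classes. Ugt2b38 in PT-like cells was at 165, 151, 2138 and 1581 CPM in control and 99.2, 82.1, 395 and 537 CPM in DN (-1.44 ± 0.27, adjusted p = 0.0182). All 4 pairs fell and males were above females in both genotypes, and the call was lost without control male 2, at -1.39 (adjusted p = 0.0828), or DN male 2, at -1.41 (adjusted p = 0.0833). In DCT-like cells its level was at most 38.0 CPM (-3.08 ± 0.34, adjusted p = 7.89e-07). Keg1, a gene named for its kidney expression, was called in 9 classes, PT-like cells included. In PT-like cells it fell in all 4 pairs without overlap, from 965, 614, 1311 and 986 to 360.0, 204, 462 and 363 CPM (-1.49 ± 0.12, adjusted p = 0.000204). Acsm2, which activates medium-chain fatty acids, was called in 9 classes and not in PT-like cells, where it was at 890.4, 1146, 3293 and 2339 CPM in control and 783, 1104, 1919 and 1463 CPM in DN (-0.43 ± 0.12, adjusted p = 0.109). In DCT-like cells it was at 2.06, 7.07, 48.5 and 62.4 CPM in control and 0, 6.50, 15.4 and 12.4 CPM in DN (-1.47 ± 0.22, adjusted p = 0.000106), lower in all 4 pairs.

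Acy3, an aminoacylase, was called in 7 classes and in PT-like cells was at 478, 253, 2240.2 and 1690.4 CPM in control and 325, 154, 496 and 579 CPM in DN (-1.27 ± 0.24, adjusted p = 0.0199). The fall was larger in males, and the call was lost without control male 2, at -1.16 (adjusted p = 0.0947), or DN male 2, at -1.18 (adjusted p = 0.0928). Slc7a13, an amino acid transporter of the straight proximal tubule, was tested in PT-like, PC-like and IC-B-like cells and called lower in each. In PT-like cells it was at 0, 0.698, 327 and 399 CPM in control and 0, 0.376, 24.3 and 79.0 CPM in DN (-2.96 ± 0.31, adjusted p = 0.00117), near 0 in every female library and lower in both male pairs. Its value moved to -2.25 (adjusted p = 0.00194) without control male 1, -2.25 (adjusted p = 0.00218) without DN male 1, -3.56 (adjusted p = 0.00199) without control male 2 and -3.58 (adjusted p = 0.00217) without DN male 2. The carboxylesterase gene Ces1f was called in the 5 classes DCT-like, CNT-like, PC-like, IC-A-like and IC-B-like. In PC-like cells Ces1f was at 0, 0.585, 10.9 and 11.003 CPM in control and 0, 0, 0.118 and 1.09 CPM in DN (-4.30 ± 0.53, adjusted p = 0.000516). Only the 2 control males had over 2 CPM, and this fold change moved to -3.37 (adjusted p = 0.0214) without control male 1, -6.14 (adjusted p = 0.000587) without control male 2, -3.36 (adjusted p = 0.017) without DN male 1 and -6.13 (adjusted p = 0.000498) without DN male 2.

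Lrp2, the endocytic receptor megalin, and Miox, which breaks down inositol, are highest in PT-like cells and were called in 5 classes each. Lrp2 in PT-like cells was at 740.5, 2476, 1164 and 1442 CPM in control and 459.9, 1212, 995 and 1377 CPM in DN (-0.50 ± 0.14, adjusted p = 0.087), lower in all 4 pairs but not called. Lrp2 in DCT-like cells was at 4.12, 18.6, 16.9 and 71.7 CPM in control and 4.26, 8.19, 12.4 and 32.6 CPM in DN (-0.99 ± 0.16, adjusted p = 0.000284), lower in 3 of 4 pairs. The list of 11 PT markers holds Kap, Lrp2 and Miox themselves, and in DCT-like cells of the 2 control males Kap alone stood at 732 and 833 CPM. The summed level in DCT-like cells was 53.5 to 1049 CPM in control and 48.9 to 290.0 CPM in DN, with 8 of 11 tested and 2 called lower, which were Kap and Lrp2. Slc34a1, the phosphate transporter of the list, was not called in DCT-like cells (-0.53, adjusted p = 0.147). In IC-A-like cells the sum was 91.6 to 799 CPM in control and 54.6 to 200.02 CPM in DN, with 10 of 11 tested and 4 called lower, Kap, Lrp2, Miox and Slc34a1. In PC-like cells it was 49.1 to 1269.6 CPM in control and 35.7 to 295 CPM in DN, with Kap, Lrp2 and Miox called lower, and in PT-like cells it was 10725 to 77622 CPM in control and 8296 to 19986 CPM in DN, with Miox called lower. Of all genes, 0.815% were called lower in DCT-like, 0.851% in IC-A-like, 0.746% in PC-like and 1.35% in PT-like cells. No PT marker was called higher in these classes. None of the 11 markers was at 0 in all libraries of these classes, and the part of PT transcripts in the falls seen in other classes was not tested.

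Cyp4b1, a cytochrome P450, was called lower in 10 classes, and neither of the classes with its highest levels called it. In PT-like cells its mean was 817 CPM in control and 323 CPM in DN (-0.87, adjusted p = 0.349). There its DN effect differed between the sexes by the edgeR interaction test, as it did in mesangial-like, DCT-like and PC-like cells. In gEC-like cells Cyp4b1 was at 1463, 491, 492 and 683 CPM in control and 1146, 579, 434 and 662 CPM in DN (-0.10 ± 0.096, adjusted p = 0.807). In DCT-like cells it was at 2.06, 0.667, 25.1 and 37.8 CPM in control and 0, 2.12, 3.75 and 3.50 CPM in DN (-2.19 ± 0.43, adjusted p = 0.00268), lower in both males and higher in DN female 2. This call was lost without control male 1, at -1.90 (adjusted p = 0.0517), control male 2, at -1.34 (adjusted p = 0.291), or DN male 2, at -1.37 (adjusted p = 0.249), and the value was -3.10 (adjusted p = 1.01e-06) without control female 2 and -3.09 (adjusted p = 1.12e-06) without DN female 2. Npy, the gene of neuropeptide Y, was highest in dLOH-like cells, where it was at 3366, 2692, 4701 and 3428 CPM in control and 4612, 1951, 2198 and 2107 CPM in DN and not called (adjusted p = 0.812). In PC-like cells Npy was at 732, 173, 1354 and 613 CPM in control and 122, 43.2, 197 and 177 CPM in DN, lower in all 4 pairs (-2.28 ± 0.23, adjusted p = 0.000133). Npy lies on chromosome 6 at 49822710 to 49829507 in mm10, slightly past the 20 Mb window around Lep (29060220 to 29073877). The part of a passenger difference around the mutated gene in its falls was not tested. Kl, the co-receptor klotho, was at 543, 2260.3, 1572 and 3706 CPM in control and 515, 1210.0, 811 and 2655 CPM in DN in DCT-like cells (-0.65 ± 0.11, adjusted p = 0.000339). All 4 pairs fell although the groups overlapped, and in CNT-like cells, where Kl was highest, it was not called (-0.43 ± 0.16, adjusted p = 0.37).

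**Figure D3:**
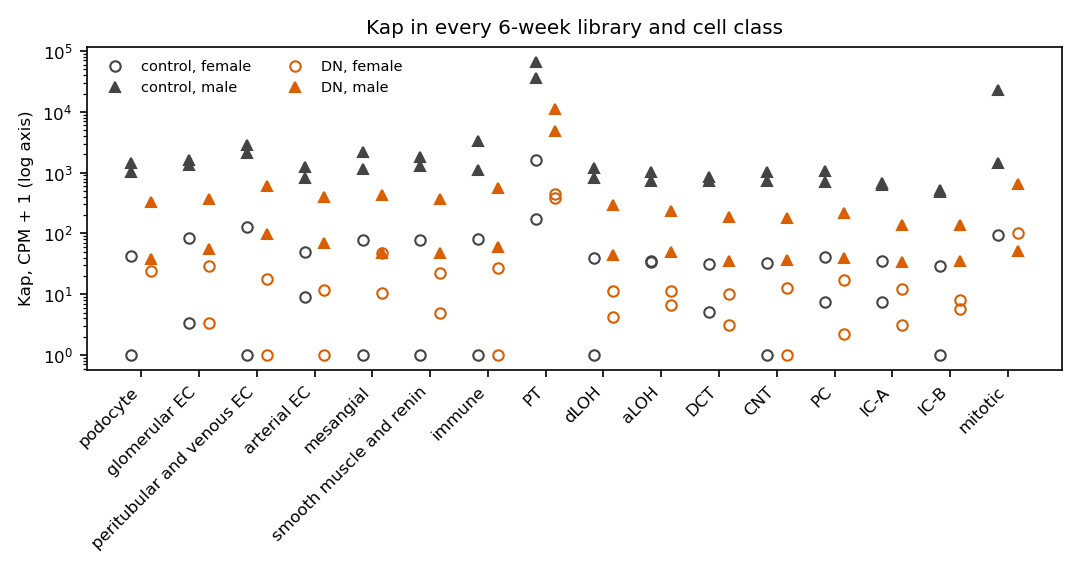
Level of Kap (vertical axis, CPM plus 1, log scale) in each 6-week library (points, circles for females and triangles for males, grey for control and orange for DN) in the 16 classes. In PT-like cells the 2 control males lie at 36023 and 66796 CPM and the DN males at 4812 and 10963 CPM, and the spacing of the libraries in most other classes follows the same order of sexes at a level near 1% to 5% of that in PT-like cells.

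Igfbp5, which binds insulin-like growth factors, and Txnip, the glucose-responsive inhibitor of thioredoxin, were also among the shared lower genes. Over the 16 classes Igfbp5 was positive in 6 and Txnip in 3. Igfbp5 in DCT-like cells was at 41.2, 60.3, 81.1 and 80.2 CPM in control and 25.6, 22.6, 33.8 and 34.6 CPM in DN, with every DN library below every control library (-1.27 ± 0.13, adjusted p = 2.19e-07). Txnip in DCT-like cells was at 237, 729, 362 and 322 CPM in control and 128, 307, 205 and 185 CPM in DN (-0.96 ± 0.089, adjusted p = 2.90e-08), lower in all 4 pairs. Txnip was also called lower in aLOH-like and PC-like cells, and in gEC-like cells, where it was highest, it was not called. In aLOH-like cells Txnip was at 195, 809, 450.2 and 389 CPM in control and 105, 276, 444 and 243 CPM in DN (-0.77 ± 0.17, adjusted p = 0.0127). The call was lost without control female 2, at -0.43 (adjusted p = 0.233), or DN female 2, at -0.43 (adjusted p = 0.231).

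The average change over classes was tested with limma in the 13 classes with all libraries, over the 4680 genes tested in each of them. It called 10 genes (0.214%), 8 higher and 2 lower. Stat3, the transcription factor downstream of interleukin 6 and leptin receptors, had a mean over classes of 5.55, 6.49, 6.06 and 6.05 log2 CPM in control and 5.93, 6.75, 6.34 and 6.39 log2 CPM in DN (0.31 ± 0.055, adjusted p = 0.0452), with a positive change in 12 of 13 classes and a call of its own in 2. Slc6a6, the taurine transporter, was at 6.91, 7.87, 7.70 and 7.67 log2 CPM in control and 7.39, 8.18, 8.05 and 8.09 log2 CPM in DN (0.39 ± 0.049, adjusted p = 0.00521), positive in 11 of 13. Both rose in all 4 pairs. Spp1, the secreted phosphoprotein osteopontin, rose by 0.62 ± 0.10 (adjusted p = 0.0378), positive in 13 of 13 classes. The GTPase gene Rhoq was also positive in 13 of 13 (0.39 ± 0.068, adjusted p = 0.0452), and Etf1, a translation release factor, was positive in 12 (0.28 ± 0.051, adjusted p = 0.0465). S100a6 (0.73 ± 0.11, adjusted p = 0.0239, positive in 11 of 13 classes), Sult1d1 (0.71 ± 0.12, adjusted p = 0.0378) and Neat1 (0.37 ± 0.068, adjusted p = 0.0465) were among the shared genes above. Gk, glycerol kinase, fell in all 4 pairs (-0.56 ± 0.10, adjusted p = 0.0452) and in 12 of 13 classes, although no single class called it. All 10 genes are named here, and except for the shared and listed ones they were chosen after their values were seen. The count was 2 without control male 1, DN male 1 or DN male 2, 4 without control male 2, 6 without control female 2 and 3 without DN female 2, and 0 without pairs.

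The average test also called Umod, which encodes uromodulin (-0.64 ± 0.078, adjusted p = 0.00521). Umod in aLOH-like cells was at 10598, 11924, 18156 and 13895 CPM in control and 5079, 8632, 9325 and 8136 CPM in DN, every DN library below every control (-0.81 ± 0.11, adjusted p = 0.000186). It was also called lower in gEC-like, arterial endothelial-like, smooth muscle and renin-like, PT-like, CNT-like and PC-like cells, at 0.205% to 1.13% of the aLOH-like level. In CNT-like cells, for example, it fell in all 4 pairs, from 319, 49.0, 147 and 99.96 to 184, 26.8, 70.2 and 18.01 CPM (-1.31 ± 0.19, adjusted p = 0.00122). In IC-A-like cells it moved the other way, at 85.3, 55.4, 33.1 and 32.0 CPM in control and 71.1, 149, 58.3 and 74.3 CPM in DN (1.10 ± 0.16, adjusted p = 6.37e-05), higher in 3 of 4 pairs and at 0.377% of the aLOH-like level in control and 1.13% in DN. In DCT-like cells, at 16.9% and 24.6% of the aLOH-like level, it was not called (-0.12 ± 0.15, adjusted p = 0.806), nor was it in IC-B-like cells (0.48 ± 0.12, adjusted p = 0.0767). The summed level of the 8 aLOH markers was 699 to 2060.3 CPM in control and 650.2 to 1311 CPM in DN in CNT-like cells, with 1 of 8 called lower, against 0.206% of all genes. In IC-A-like cells it was 219.9 to 407 CPM in control and 223 to 390.0 CPM in DN, with 1 of 7 tested called in each direction. Of all genes there 1.26% were higher and 0.851% lower. The part of free aLOH transcripts in these values was not tested.

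Whether a change was confined to 1 class was asked with a test of the difference itself, the class against the mean of the other classes (limma). It called 18 gene and class combinations of 139142 (0.0129%), of which 12 were in PT-like (0.0992%), 2 in PC-like (0.0173%), 2 in aLOH-like (0.0217%), 1 in mesangial-like (0.0106%) and 1 in smooth muscle and renin-like cells (0.0124%). In all, 13 genes were also called by edgeR in that class and in no other. Of these 10 were in PT-like, 2 in PC-like and 1 in mesangial-like cells. Slc1a4, a transporter of neutral amino acids, was at 1.86, 3.49, 7.63 and 9.54 CPM in control and 0.679, 0.941, 1.71 and 2.83 CPM in DN in PT-like cells (-1.93 ± 0.19, adjusted p = 0.000579). It fell in all 4 pairs, and its change differed from that of the other classes by -1.84 log2 units (adjusted p = 0.00303). Slc43a2, another neutral amino acid transporter, was at 46.6, 50.4, 78.2 and 69.4 CPM in control and 80.2, 112, 168 and 114 CPM in DN with no overlap (0.95 ± 0.11, adjusted p = 0.00117), 0.95 above the other classes (adjusted p = 0.0172). In mesangial-like cells Tspan2, a tetraspanin, was at 9.83, 10.7, 8.70 and 20.8 CPM in control and 31.2, 47.7, 29.4 and 47.6 CPM in DN with no overlap (1.68 ± 0.25, adjusted p = 0.000579), 1.62 above the others (adjusted p = 0.0284).

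In PC-like cells the 2 confined genes were Gfra4 and Shisa4. Gfra4, a co-receptor for the neurotrophic ligand persephin, was at 6.55, 7.79, 9.02 and 3.605 CPM in control and 18.5, 13.9, 16.9 and 9.95 CPM in DN with no overlap (1.04 ± 0.18, adjusted p = 0.00463). Its change exceeded that of the other classes by 1.29 (adjusted p = 0.0447). Shisa4 was at 66.6, 31.1, 61.4 and 46.3 CPM in control and 49.2, 13.4, 42.5 and 34.8 CPM in DN (-0.65 ± 0.12, adjusted p = 0.00875), lower in all 4 pairs, and lay -0.93 from the other classes (adjusted p = 0.0447). No gene met this definition in aLOH-like, DCT-like, CNT-like, IC-A-like or IC-B-like cells under limma. In the test against the other classes, 643 of 9220, 729 of 10066, 621 of 10674, 873 of 10811 and 728 of 10915 genes had an unadjusted p under 0.05. With no difference at all, a share near 0.05 would do so by chance. In simulated DCT-like data this limma test recovered 63% of 100 genes changed by a log2 fold change of 1, so an absence of calls does not show that no change was confined. An edgeR model of each class beside the summed counts of the others, added after the data were seen, gave 436 confined genes, with 41 in aLOH-like, 43 in DCT-like, 4 in CNT-like, 41 in PC-like, 55 in IC-A-like and 5 in IC-B-like cells. Every library left out lowered the limma count of 13, to 5 without control female 1 or DN female 1, 4 without control male 1, 2 without control female 2, DN female 2 or DN male 1, and 1 without control male 2 or DN male 2.

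In aLOH-like cells Umod and Egf fell while Cryab, Lcn2 and Clu rose. Egf, the gene of epidermal growth factor, which the distal nephron makes and which acts on magnesium uptake, was at 3923, 7768, 3319 and 5745 CPM in control and 2045, 4582, 2181 and 3818 CPM in DN (-0.71 ± 0.11, adjusted p = 0.00087). It fell in all 4 pairs by a similar ratio, and the groups overlapped. Cryab, the small heat shock protein alpha B crystallin, was at 129, 64.2, 131 and 86.7 CPM in control and 152, 147, 269 and 240.2 CPM in DN with no overlap (1.05 ± 0.16, adjusted p = 0.000383). Lcn2, the injury marker NGAL, was at 6.49, 36.1, 8.76 and 39.6 CPM in control and 29.9, 55.9, 23.6 and 133 CPM in DN (1.21 ± 0.18, adjusted p = 0.000494), higher in all 4 pairs. Clu, the secreted chaperone clusterin, was at 29.9, 54.5, 25.5 and 31.6 CPM in control and 46.8, 171, 28.8 and 530.1 CPM in DN (1.80 ± 0.35, adjusted p = 0.00573). It rose in all 4 pairs, with DN male 2 far above the other libraries. The value was 1.03 (adjusted p = 0.0109) without DN male 2, and without control male 2 it was 1.03 (adjusted p = 0.0113).

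Of the 12 genes of the tubule injury list, 8 were tested in aLOH-like cells and 3 were higher (Cryab, Krt18 and Lcn2), with a list median of 0.41 against -0.0064 over all genes tested there, of which 1.04% were higher. Bmp4, a bone morphogenetic protein, and Tmem61 were picked after their values were seen. Bmp4 was at 22.1, 69.2, 68.7 and 65.7 CPM in control and 9.35, 33.4, 31.4 and 29.5 CPM in DN (-1.11 ± 0.12, adjusted p = 1.71e-05), with female 1 lowest in each genotype and all 4 pairs falling. Tmem61 was at 10.4, 17.3, 30.6 and 32.2 CPM in control and 5.61, 6.13, 7.27 and 5.52 CPM in DN with no overlap (-1.84 ± 0.22, adjusted p = 3.27e-05). Tmem61 was among the leading genes of an unnamed cluster with markers of both intercalated types. The part of intercalated cell transcripts in its aLOH-like values was not tested. Slc12a1, the furosemide-sensitive salt transporter of this segment, was at 4948, 7639.8, 5983 and 6170.3 CPM in control and 3918, 6758, 6260.2 and 5891 CPM in DN and was not called (-0.12 ± 0.097, adjusted p = 0.693).

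DCT-like cells had 265 calls, of which 33 were kept in every refit with the pairs, against 54 of 226 in PC-like, 44 of 228 in IC-A-like and 27 of 181 in aLOH-like cells. Sgk1, the kinase that carries aldosterone and glucocorticoid signals to sodium channels, was at 32.9, 18.2, 14.4 and 18.7 CPM in control and 59.6, 26.5, 37.9 and 37.3 CPM in DN (0.90 ± 0.15, adjusted p = 0.000421), higher in all 4 pairs. In dLOH-like cells, where 8 of 9460 genes were called (0.0846%), Sgk1 rose without overlap, from 31.7, 46.5, 20.0 and 38.3 to 113, 89.0, 98.3 and 140.5 CPM (1.73 ± 0.23, adjusted p = 0.00275). Krt8, a keratin of simple epithelia, was at 41.2, 65.1, 65.0 and 62.9 CPM in control and 78.8, 88.7, 99.8 and 98.7 CPM in DN with no overlap (0.59 ± 0.094, adjusted p = 0.000258). Gdf15, a stress-induced cytokine and p53 target, was at 2.06, 1.33, 3.59 and 1.61 CPM in control and 0, 10.0, 7.88 and 11.7 CPM in DN (2.32 ± 0.42, adjusted p = 0.00111). It was higher in 3 of 4 pairs and listed at 0 in DN female 1, and its call was lost without control female 2, at 1.90 (adjusted p = 0.112), or DN female 2, at 1.91 (adjusted p = 0.127).

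The repressor Bhlhe40, which acts on the circadian clock, was at 24.7, 8.54, 8.62 and 9.45 CPM in control and 21.3, 21.7, 19.1 and 19.8 CPM in DN in DCT-like cells (1.11 ± 0.18, adjusted p = 0.000284), higher in 3 of 4 pairs. Control female 1 exceeded every DN library, and the call was lost without control female 2, at 0.92 (adjusted p = 0.0723), or DN female 2, at 0.93 (adjusted p = 0.0724). With it, 3 of 15 clock genes tested there were higher and none lower, against 1.82% higher over all genes, and the other two were Per2 and Tef. Of 90 nuclear genes of oxidative phosphorylation tested in any class, 5 were higher in DCT-like cells and 84 of 86 tested there had a positive change, with a median of 0.19 against 0.0056 over all genes. Over the 16 classes the medians of this list ran from -0.25 to 0.19, the highest being that of DCT-like cells, and 5 were positive. Of 1345 tests 6 were called (0.446%), against 1.47% of the tests of all genes. Inmt, a methyltransferase, and Ckb, brain creatine kinase, were picked after their values were seen. Inmt was at 14.4, 7.48, 15.4 and 11.1 CPM in control and 14.9, 37.0, 35.3 and 27.6 CPM in DN (1.64 ± 0.20, adjusted p = 4.36e-06), about level in the female 1 pair and over 2 times higher in the other 3. Inmt was among the leading genes of a PT-like cluster, and the part of PT transcripts in its DCT-like values was not tested. Ckb was at 282, 123, 190.3 and 37.8 CPM in control and 315, 323, 240.2 and 130.2 CPM in DN (0.97 ± 0.14, adjusted p = 9.61e-05), higher in all 4 pairs. Slc12a3, the thiazide-sensitive cotransporter that marks the class, was at 5952, 6193, 7142 and 4644 CPM in control and 4074, 6125, 6449.9 and 5298 CPM in DN and was not called (-0.12 ± 0.093, adjusted p = 0.603).

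Clu was called in opposite directions in different distal classes. It was among the leading genes of the CNT-like cluster, and the part of CNT transcripts in its values in other classes was not tested. In DCT-like cells it was at 790.2, 1132, 1132 and 2284 CPM in control and 816, 692, 828 and 1381 CPM in DN (-0.49 ± 0.10, adjusted p = 0.00472), lower in 3 of 4 pairs. Leaving out control female 2, control male 2, DN female 2 or DN male 2 ended this call, at -0.42 (adjusted p = 0.112), -0.42 (adjusted p = 0.0516), -0.41 (adjusted p = 0.127) and -0.41 (adjusted p = 0.056). In IC-B-like cells Clu was at 81.4, 97.2, 94.99 and 73.2 CPM in control and 163, 208, 210.3 and 172 CPM in DN, every DN library above every control (1.14 ± 0.13, adjusted p = 2.11e-05), and the call held without any 1 library. In IC-A-like cells it was at 335, 129, 170.2 and 199 CPM in control and 321, 135, 451 and 369 CPM in DN (0.66 ± 0.15, adjusted p = 0.00875). The call was lost without control male 1, at 0.39 (adjusted p = 0.238), control male 2, at 0.57 (adjusted p = 0.0996), DN male 1, at 0.40 (adjusted p = 0.228), or DN male 2, at 0.57 (adjusted p = 0.103).

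In DCT-like cells some acid-base genes were called lower. Of 18 acid-base transport genes tested there 3 were lower (Atp6v1b1, Atp6v1g3 and Foxi1) and none higher, against 0.815% lower over all genes. Atp6v1g3, a subunit of the proton pump, was at 14.4, 24.4, 40.9 and 134 CPM in control and 36.2, 9.18, 19.1 and 40.8 CPM in DN in DCT-like cells (-1.32 ± 0.18, adjusted p = 2.70e-05), lower in 3 of 4 pairs. In IC-A-like cells it was at 8778, 4826, 4340.2 and 5647 CPM in control and 7567, 4274, 5329.9 and 5908 CPM in DN and was not called (-0.0031 ± 0.10, adjusted p = 1). The 8 IC-A markers summed to 24.7 to 181 CPM in control and 22.5 to 76.2 CPM in DN in DCT-like cells, with 5 of 8 tested and 1 called lower. Their part in these falls was not tested.

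CNT-like cells had 50 calls, Scg5, Myof, Isg15 and Irs2 among them. Isg15, an interferon-induced ubiquitin-like protein, was at 0, 3.27, 1.49 and 1.34 CPM in control and 22.5, 20.3, 6.12 and 3.25 CPM in DN (2.34 ± 0.39, adjusted p = 0.00628). It rose in all 4 pairs and most in females, and the call was lost without control female 2, at 1.90 (adjusted p = 0.139), or DN female 2, at 1.90 (adjusted p = 0.146). With Ifit1, 2 of 9 interferon genes tested in CNT-like cells were higher and none lower, where 0.468% of all genes were called. Irs2, the insulin receptor substrate, was the 1 of 15 insulin and FOXO genes called there, and it was higher. Olfm4, a secreted glycoprotein picked after its values were seen, was at 9.12, 4.74, 5.97 and 2.41 CPM in control and 53.9, 21.6, 15.5 and 8.27 CPM in DN (1.88 ± 0.28, adjusted p = 0.00187), higher in all 4 pairs. The calcium genes that mark the segment were not called. Calb1, calbindin, was at 3004, 2682, 7239 and 7129.8 CPM in control and 3139, 4086, 8265 and 10308 CPM in DN (0.36 ± 0.13, adjusted p = 0.332), and the channel gene Trpv5 was at 41.0, 107, 97.9 and 127 CPM in control and 67.4, 177, 106 and 209 CPM in DN (0.54 ± 0.12, adjusted p = 0.0621). Both were higher in all 4 pairs, and the groups overlapped.

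In PC-like cells Trpv6, an apical calcium channel, was at 15.3, 21.4, 5.96 and 9.49 CPM in control and 55.4, 53.9, 22.1 and 16.6 CPM in DN (1.405 ± 0.19, adjusted p = 0.000621). Trpv6 lies on chromosome 6 at 41620624 to 41636405 in mm10, within 20 Mb of Lep, so for it too a passenger difference and a change with diabetes cannot be told apart. Females were above males in both genotypes and all 4 pairs rose, and the difference from the other classes was 1.29 (adjusted p = 0.0693). Lcn2 in PC-like cells, its highest class, was at 107, 145, 190.4 and 98.3 CPM in control and 236, 248, 364 and 262 CPM in DN with no overlap (1.05 ± 0.12, adjusted p = 0.00024). Adora1, the adenosine A1 receptor, picked after its values were seen, was at 6.55, 21.8, 12.2 and 13.8 CPM in control and 27.1, 57.7, 27.9 and 36.5 CPM in DN with no overlap (1.37 ± 0.11, adjusted p = 1.89e-05). Car15, a membrane-bound carbonic anhydrase, was at 101, 23.7, 5.82 and 9.87 CPM in control and 205, 34.5, 14.0 and 31.7 CPM in DN (1.05 ± 0.17, adjusted p = 0.00295), higher in all 4 pairs while female 1 far exceeded the other libraries of each genotype. Car15 was among the leading genes of an IC-B-like cluster, and the part of IC-B transcripts in its PC-like values was not tested. Hmox1, heme oxygenase, was at 19.6, 8.28, 18.2 and 10.6 CPM in control and 6.15, 3.47, 6.98 and 6.22 CPM in DN with no overlap (-1.20 ± 0.21, adjusted p = 0.00655). It lost its call without control male 1, at -1.08 (adjusted p = 0.096), or DN male 1, at -1.07 (adjusted p = 0.093). Aqp2, the vasopressin-regulated water channel, was at 10044, 10865, 7451 and 7468 CPM in control and 8847, 10882, 9564 and 12140.5 CPM in DN and was not called (0.22 ± 0.15, adjusted p = 0.622). Of 10 water transport genes tested in PC-like cells 1 was called, Avpr2, the vasopressin receptor, which was lower, and of 18 calcium and magnesium genes 1 was higher (Trpv6) and 1 lower (Umod), where 1.96% of all genes were called.

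In IC-A-like cells Spp1 was at 1560.4, 1016, 1161 and 912 CPM in control and 2995, 2206, 2394 and 2069 CPM in DN, every DN library above every control (1.08 ± 0.097, adjusted p = 4.45e-09). Its pairs rose by similar ratios, and its change was 0.49 above that of the other classes, which was not called by limma (adjusted p = 0.417) and was in the added edgeR model (adjusted p = 0.000373). The metallothionein genes Mt1 and Mt2, which bind zinc and copper, rose in IC-A-like cells. Mt1 was at 714, 189.9, 299 and 313 CPM in control and 1823, 293, 964 and 509 CPM in DN (1.08 ± 0.12, adjusted p = 8.61e-07). Mt2 was at 56.9, 14.5, 22.1 and 27.4 CPM in control and 359.8, 35.9, 112 and 46.3 CPM in DN (1.59 ± 0.18, adjusted p = 4.16e-07). Both rose in all 4 pairs, and most in female 1 and male 1. With Cebpd and Fkbp5, 4 of 13 glucocorticoid-responsive genes tested in IC-A-like cells were higher and none lower, with a list median of 0.25 against -0.0060 over all genes, of which 1.26% were higher.

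Transport and receptor genes of IC-A-like cells moved both ways. Slc26a7, an anion exchanger, was at 28.4, 184, 70.8 and 130.2 CPM in control and 10.8, 69.3, 29.2 and 73.7 CPM in DN (-1.16 ± 0.15, adjusted p = 1.22e-05), lower in all 4 pairs. Ptger3, a prostaglandin E2 receptor, was at 50.5, 51.3, 47.8 and 46.3 CPM in control and 68.9, 92.1, 83.5 and 74.7 CPM in DN with no overlap (0.76 ± 0.11, adjusted p = 4.39e-05). Cpt1a, which brings fatty acids into mitochondria, was at 34.7, 56.1, 39.1 and 52.2 CPM in control and 77.6, 88.8, 49.7 and 79.1 CPM in DN (0.59 ± 0.12, adjusted p = 0.00285), higher in all 4 pairs. Slc4a1, the basolateral anion exchanger that marks these cells, was at 685, 727, 914 and 1338 CPM in control and 496, 749, 693 and 929.8 CPM in DN and was not called (-0.33 ± 0.098, adjusted p = 0.0778). Hsd11b2, which protects the mineralocorticoid receptor from cortisol, was at 63.2, 49.7, 54.3 and 86.04 CPM in control and 25.9, 26.2, 35.4 and 34.4 CPM in DN with no overlap (-0.997 ± 0.14, adjusted p = 2.49e-05). In PC-like cells, its highest class, it was not called, at 2767, 2690.2, 4900.2 and 3979 CPM in control and 2258, 2961, 3805 and 3585 CPM in DN (-0.17 ± 0.096, adjusted p = 0.525). The 8 PC markers summed to 440.2 to 533 CPM in control and 265 to 440.3 CPM in DN in IC-A-like cells, with 2 of 8 called lower and none higher, against 0.851% lower over all genes, and 1 of 5 erythroid markers was tested and called higher, the sum being 0 to 15.8 CPM in control and 0.535 to 403 CPM in DN. The part of these other cells' transcripts in the IC-A-like values was not tested.

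IC-B-like cells had 47 calls, among them Clu, Scg5 and Hist1h1c above. Kcnk1, a potassium channel, was at 12.1, 18.1, 11.4 and 6.65 CPM in control and 31.3, 22.1, 32.9 and 29.4 CPM in DN with no overlap (1.22 ± 0.20, adjusted p = 0.00198). It lost its call without control male 2, at 0.88 (adjusted p = 0.0599), or DN male 2, at 0.89 (adjusted p = 0.0587). Ptges, which makes prostaglandin E2 and was picked after its values were seen, was at 54.3, 44.7, 26.2 and 22.2 CPM in control and 93.8, 61.9, 43.0 and 62.9 CPM in DN (0.86 ± 0.13, adjusted p = 0.00081), higher in all 4 pairs. Scg5 in IC-B-like cells, its highest class, was at 973, 690.0, 440.0 and 300.5 CPM in control and 1225, 917, 1275 and 787 CPM in DN (0.93 ± 0.14, adjusted p = 0.00081). It rose in all 4 pairs and more in males. Slc26a4, the chloride and bicarbonate exchanger pendrin, was at 1053, 1254, 1036 and 1473 CPM in control and 787, 1269, 1151 and 1556 CPM in DN and was not called (-0.027 ± 0.096, adjusted p = 0.981).

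**Figure D4:**
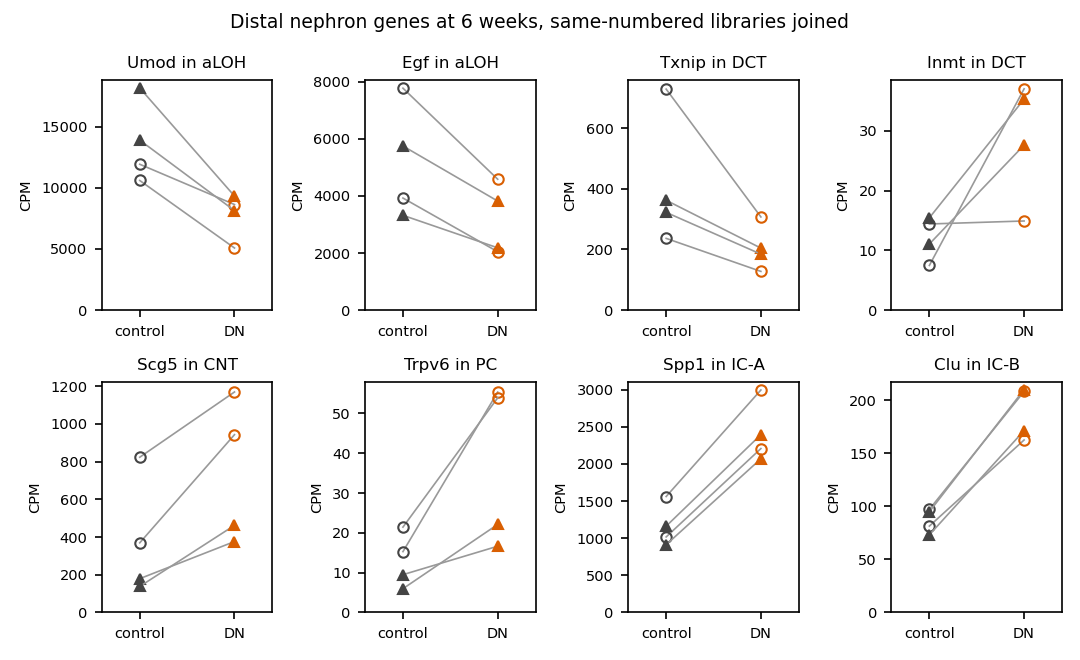
Level of 8 genes (vertical axis, CPM, from 0) in the distal class named above each panel, with same-numbered control (grey) and DN (orange) libraries joined by lines, circles for females and triangles for males. All 4 lines run down for Umod, Egf and Txnip and up for Inmt, Scg5, Trpv6, Spp1 and Clu, and the groups do not overlap for Umod, Spp1 and Clu.

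Mesangial-like cells held 8 of the 13 interferon calls. Of 16 interferon genes tested in mesangial-like cells 8 were higher and none lower (median 1.22 against -0.0049 over all genes, of which 2.8% were higher). Beside them 2 of 2 tested were higher in podocyte-like cells and 2 of 9 in CNT-like cells, against 2.0% and 0.262% of all genes. Over the classes the medians of this list ran from -0.61 to 1.49, and 10 were positive. For Bst2 and Ifit3, both among the 8 higher genes, the DN effect differed between the sexes in mesangial-like cells. Tap1, which carries peptides to class I molecules, was at 6.55, 12.8, 18.5 and 4.63 CPM in control and 6.23, 20.9, 130.2 and 23.1 CPM in DN in mesangial-like cells (2.09 ± 0.31, adjusted p = 0.000444), higher in 3 of 4 pairs and by far in DN male 1. Its call was lost without control male 1, at 1.07 (adjusted p = 0.251), or DN male 1, at 1.07 (adjusted p = 0.271). None of 12 immune cell markers passed the filter in mesangial-like cells, where they summed to 2.17 to 18.5 CPM in control and 2.67 to 15.6 CPM in DN and 3 were at 0. Of 21 matrix genes tested in mesangial-like cells 10 were higher and none lower, against 2.8% higher over all genes. In gEC-like cells 2 of 14 were higher and 1 lower, with a median of 0.0098, and Bgn, the proteoglycan biglycan, rose without overlap in gEC-like cells, at 30.6, 43.0, 22.1 and 30.4 CPM in control and 70.5, 121, 122 and 243 CPM in DN (2.08 ± 0.21, adjusted p = 5.90e-06). The share called in gEC-like cells was 1.32%.

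Of 21 higher calls among genes known to respond to tissue dissociation, 10 were in podocyte-like cells, where 2.64% of 6711 genes were called. Of 20 such genes tested there 10 were higher and none lower, beside 4 of 24 in mesangial-like, 3 of 20 in aLOH-like and 2 of 22 in DCT-like cells. Over all genes 2.8%, 1.04% and 1.82% were higher in these 3 classes. In smooth muscle and renin-like cells 1 of 25 was higher and 3 were lower (median -0.19), against 0.622% and 0.236% of all genes. Fos, an immediate early gene, was at 0, 58.2, 71.0 and 27.1 CPM in the 4 control libraries and at 171, 739 and 334 CPM in DN female 2, male 1 and male 2 of podocyte-like cells (2.91 ± 0.39, adjusted p = 5.87e-07). The groups did not overlap, and no DN female 1 value existed. The part of dissociation in these calls was not tested.

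Each list is given by its calls over all classes, higher before lower, beside 1.47% called over all tests. Calcium and magnesium genes gave 4 higher and 15 lower calls in 199 tests (9.55%), of which Umod gave 1 higher and 7 lower. Sodium transport genes gave 7 higher and 5 lower calls in 292 tests (4.11%), acid-base genes 4 and 8 in 192 (6.25%), potassium genes 1 and 4 in 79 (6.33%) and water transport genes 3 and 3 in 108 (5.56%). Complement and acute phase genes, Lcn2 and Clu among them, gave 10 higher and 1 lower calls in 61 tests (18%), and tubule injury genes 14 and 1 in 116 (12.9%). Glucose and organic solute transport genes gave 2 higher and 12 lower calls in 116 tests (12.1%), of which PT-like cells gave 2 higher and 1 lower of 17 tested (median 0.043) and other classes the rest. There were also calls for matrix genes, 21 and 3 in 208 (11.5%), and interferon genes, 13 and 0 in 162 (8.02%). Glucocorticoid-responsive genes gave 12 and 1 in 188 (6.91%), dissociation genes 21 and 3 in 357 (6.72%), antigen presentation genes 9 and 0 in 144 (6.25%) and contractile genes 8 and 2 in 175 (5.71%). Fatty acid genes gave 9 and 3 in 219 (5.48%), NRF2 genes 7 and 2 in 183 (4.92%), hypoxia genes 2 and 3 in 105 (4.76%) and cholesterol synthesis genes 3 and 5 in 211 (3.79%). Glycolysis genes gave 7 and 4 in 311 (3.54%), insulin and FOXO genes 3 and 4 in 201 (3.48%), ER stress genes 5 and 2 in 206 (3.4%) and mitochondrially encoded genes 2 and 0 in 206 (0.971%). Genes of the p53 response gave 9 higher and no lower calls in 147 tests (6.12%), and clock genes 8 and 1 in 194 (4.64%). Ribosomal protein genes were called in 3 of 1400 tests (0.214%), and genes within 20 Mb of Lep in 33 of 1687 (1.96%).

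No share of cells per class passed the exact permutation test within pairs, which cannot go below p = 0.125 with 4 pairs. PT-like cells were 14.7%, 11.03%, 21.9% and 14.7% of kept cells in control and 20.0%, 16.99%, 24.9% and 22.9% in DN, a difference of 5.61 points (4 of 4 pairs, exact two-sided p = 0.125). Of the cells in named classes alone the difference was 2.57 points (exact p = 0.5). Immune cells were 0.804% ± 0.292 (SD, n = 4) in control and 1.24% ± 0.257 in DN, higher in 4 of 4 pairs (exact p = 0.125). The cluster led by Lyz2 and Cd74 held 48.2% of immune cells in control and 69.9% in DN, and the cluster led by Ccl5 and Trbc2 held 32.4% and 22.4%. Podocyte-like cells were 0.929% ± 0.299 and 0.654% ± 0.341 (exact p = 0.25). Their difference over the cells in named classes was -0.587 points (exact p = 0.125). Among distal classes, DCT-like cells were 5.13% ± 2.18 in control and 4.94% ± 1.96 in DN, aLOH-like cells 6.34% ± 3.70 and 4.99% ± 2.01, PC-like cells 8.58% ± 3.81 and 8.13% ± 2.03, and CNT-like cells 4.20% ± 2.39 and 3.56% ± 1.18. IC-A-like cells were 3.14% ± 1.28 and 4.08% ± 0.857, and IC-B-like cells 3.91% ± 1.66 and 4.05% ± 0.711. Of the cells in named classes alone, the differences were -1.01 points for DCT-like (exact p = 0.25), -1.75 for PC-like (exact p = 0.5), -1.70 for CNT-like (exact p = 0.25) and -1.83 for aLOH-like cells (exact p = 0.375). Unnamed clusters held 8.59%, 25.8%, 19.9% and 62.5% of kept cells in control and 11.4%, 29.1%, 16.3% and 27.1% in DN. The part of these unnamed cells, and of the Percoll gradient that depletes the proximal tubule, in the shares was not tested.

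Whether the DN effect differed between males and females was tested as an interaction in each class (edgeR), which gave 274 calls over all classes (0.197% of tests). PT-like cells had 114 of them (0.943% of genes), peritubular and venous endothelial-like cells 20 (0.494%), PC-like cells 44 (0.382%), mesangial-like cells 29 (0.309%) and CNT-like cells 22 (0.206%). IC-A-like cells had 15 (0.139%), gEC-like cells 9 (0.0965%), podocyte-like cells 7 (0.104%), DCT-like cells 6 (0.0596%), smooth muscle and renin-like cells 2 (0.0249%), aLOH-like cells 3 (0.0325%) and IC-B-like cells 3 (0.0275%). With 2 pairs of each sex, this test rests on few mice.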

How the data were processed

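The deposited files hold raw UMI counts per gene and cell barcode, which the authors made with Cell Ranger 3.0.2 against mm10 (submitters' processing notes). Whether counting used strand is not given in the sources used here, so named genes that overlap others are uncertain: Umod, Egf, Keg1, Sult1a1, Txnip, Cdkn1a, Tspan2, Slc43a2, Cryab, Tap1, Krt8, Bhlhe40, Tef, Cebpd, Fkbp5, Irs2, Avpr2, Mt2, Kcnk1, Bmp4, Adora1, Slc6a6, Stat3, Rhoq and Slc34a1 on the opposite strand, and Neat1, Gfra4, Car15, Spp1, Ptges and Olfm4 on the same strand. Egf, Slc43a2, Fkbp5, Slc6a6 and Rhoq overlap genes on both strands. Cells with 200 to 7000 genes and at most 50% mitochondrial UMIs were kept, which left 94436 of 116439 barcodes. Cells were clustered (leidenalg 0.10.2) into 47 clusters, 17 of them unnamed, 9769 doublets were removed by lineage markers, and 1461 further cells of non-tubule clusters were removed for over 20% mitochondrial UMIs, which left 83206. UMIs were summed per library and class with at least 10 cells and at least 3 pairs. Each class was tested with edgeR 4.0.16 (R 4.3.3, TMM, quasi-likelihood) over the libraries of both ages, with pairs as a block. The SE beside an edgeR log2 fold change was worked back from the test, as its absolute value over the square root of the F statistic. Replicate numbers come from the titles. Deviations of same-numbered 6-week libraries from the genotype mean correlated at 0.799 to 0.926 over 4680 genes, so the numbers were taken as pairs. The sex that a pair shares counts toward these values. With the mean of each sex also taken off they were 0.935 in females and 0.769 in males. The female replicate 1 libraries formed a barcode batch of their own, and the titles do not say what same-numbered libraries share. Mean effects and class differences used limma 3.58.1 on log2 CPM with a prior count of 2. Alternatives, DESeq2 1.42.0 among them, stand in the closing section. In simulated DCT-like data the edgeR test recovered 100% of 200 genes changed by a log2 fold change of 1 among 10267, with 5.21% false calls, and 0% without the pairs. The limma mean effect recovered 100% with 7.48% false calls over 4975 genes, and the limma test of a class against the others recovered 63%. The simulation gave same-numbered libraries a common effect, so the loss without pairs was built in and does not show that the libraries are pairs. Changed genes were drawn from those well expressed in every class used, so recovery at low levels was not tested. Named genes were the 12 shared genes in each direction called in the most classes (leaving out symbols of Gm and a digit or ending in Rik), confined genes with the smallest p, and list members called in a class, and others are said to be chosen after their values were seen. Members and lists were chosen with earlier results of these data known.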

Additional observations from a re-analysis of the deposited data

Results flagged for a closer look

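Among 185 groups of 4 libraries checked for 1 library far from the other 3, 11 were flagged, and chance flags about 1 in 20 groups. Most flags were of female replicate 1 libraries, which were shallow and formed a barcode batch of their own. In DCT-like cells control female 1 stood low for Krt8 at 41.2 CPM and high for Bhlhe40 at 24.7 CPM. In aLOH-like cells female 1 stood low for Bmp4 in both genotypes, at 22.1 CPM in control and 9.35 CPM in DN, and control female 1 stood high for Tnfrsf12a at 28.6 CPM. In PC-like cells DN male 2 stood high for Tspan33 at 74.3 CPM and for Ces1f at 1.09 CPM, and DN female 1 stood high for Car15 at 205 CPM. DN female 1 also stood high for Npy in dLOH-like cells, at 4610 CPM. In mesangial-like cells control male 2 stood high for Tspan2 at 20.8 CPM and DN male 1 for Tap1 at 130 CPM.

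Among the genes and classes whose values per library are given above, the DN effect differed between the sexes for 5. The interaction test was used (edgeR quasi-likelihood, adjusted p under 0.05), and other cases so called are counted or named above. The log2 effect in males minus that in females was -4.41 for Cyp4b1 in DCT-like cells and -1.22 for Acy3 in PT-like cells. It was 1.06 for Scg5 in IC-B-like cells, 1.24 for Fam129a in PC-like cells and 1.10 for Clu in IC-A-like cells. Each sex had 2 pairs.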

How the results depend on the processing

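The 2044 calls, 61 shared genes and 251 calls among list members depended most on the replicate block. Without it, with sex as a term, they were 102, 1 and 10. With sex and barcode batch, a fit that dropped the male pairs only, they were 418, 6 and 41. All 102 and 418 were among the 2044. The genes with a mean effect went from 10 to 0 without the block, the effects in 1 class from 18 to 32 and the confined genes from 13 to 21. Under DESeq2 there were 1316 calls, 33 shared genes and 153 list calls, with the 6-week libraries alone 1298 calls, and with no filter on low counts 4587, 248 and 680. Counting only classes with at least 10% of a gene's highest level left 31 shared genes, and asking for 5 classes left 21. The edgeR model of a class beside the others, added after seeing the data, gave 1421 effects in 1 class and 436 confined genes. Leaving out 1 library gave 1171 to 2120 calls, 37 to 73 shared genes, 178 to 282 list calls, 2 to 10 mean effects, 2 to 7 effects in 1 class and 1 to 5 confined genes. The cause of these moves was not tested. The share differences kept their direction without any 1 library, at 4.09 to 7.71 points for PT-like, 0.319 to 0.555 for immune and -0.395 to -0.127 for podocyte-like cells. Taken over the cells in named classes they were 2.57, 0.437 and -0.587 points. Of 606 values of named genes with 1 library left out, 38 lost their call, as did 16 of 749 under the other refits. So did 65 of 76 without the block (sex) and 36 of 76 with sex and batch, and none reversed. With the block, leaving out either library removes the contrast of its pair, so values without 1 library come in near repeats. Control male 2 had a median of 619 UMIs per kept cell, the lowest of the 8 libraries.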
